A study of Rattus norvegicus with 20 samples.

Results

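The genes of the smooth muscle contractile apparatus and of its coactivator myocardin, Myocd, Lmod1, Mylk, Synpo2, Tpm1, Acta2, Myh11, Ldb3, Cnn1 and Tagln, were described across treatments in rat mesenteric artery under estrogens and selective estrogen receptor modulators (SERMs). Every probe whose only gene symbol in the platform annotation was one of these 10 genes was taken, which gave 21 of 35129 probes. Of these, 20 were bright enough to be among the 24562 probes tested; the other one, Mylk probe 3, read between 0.017 and 0.319 with its lowest and highest values both under raloxifene. The genes were chosen with changes of these same arrays in view, so their values, changes and differences between compounds are a description. Where a probe is counted below as past a threshold, the count comes from the fit over all probes and supports nothing about the genes, and intervals only show precision.

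Expression was measured with 1 single-colour CodeLink array per rat in 20 female Sprague Dawley rats, all without ovaries. Ovariectomy was done at an age of 4 weeks, oral dosing began 2 weeks later and lasted 3 weeks, and the arteries were collected at 9 weeks of age. A daily dose of 0.15 mg/kg was given of ethinyl estradiol (3 rats), estradiol benzoate (3 rats) or equilin (3 rats), and a daily dose of 3 mg/kg of tamoxifen (4 rats) or raloxifene (3 rats). The remaining 4 rats received the vehicle, a solution of 2-hydroxypropyl-β-cyclodextrin. The controls lacked ovaries too, no group with intact ovaries was included, and each compound was given at a single dose. The design asks how estrogens and SERMs act on gene expression in these arteries, and the number of rats limits the precision of every value.

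Smooth muscle cells of the artery wall contract when myosin light chain kinase (the product of Mylk) phosphorylates the myosin that contains the smooth muscle heavy chain (Myh11), which then pulls on actin filaments (Acta2). Tropomyosin (Tpm1), leiomodin (Lmod1), calponin (Cnn1) and transgelin (Tagln) sit on those filaments, while synaptopodin 2 (Synpo2) and the PDZ and LIM protein encoded by Ldb3 belong to actin-anchoring structures, and the product of Ldb3 is known mainly from the Z disc of striated muscle. Myocardin (Myocd) is a coactivator of serum response factor, which binds the CArG box in promoters of contractile genes, and loss of this programme is a textbook feature of smooth muscle cells that leave the contractile state.

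Of the 10 genes, 6 had a promoter window in the RefSeq set (GRCr8, 250 bases before and 50 after the start): Acta2, Synpo2, Cnn1, Tpm1, Mylk and Ldb3. The 150 bases before the start are shown for the only windows with a CArG box, the element through which serum response factor and myocardin act; capitals mark the box. The Acta2 stretch lies at chr1:241172504-241172653 and the Ldb3 stretch at chr16:9924680-9924829, both on the minus strand and written 5′ to 3′.
Acta2: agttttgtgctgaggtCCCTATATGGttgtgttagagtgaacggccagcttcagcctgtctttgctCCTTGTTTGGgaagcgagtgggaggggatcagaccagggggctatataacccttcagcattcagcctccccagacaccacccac
Ldb3: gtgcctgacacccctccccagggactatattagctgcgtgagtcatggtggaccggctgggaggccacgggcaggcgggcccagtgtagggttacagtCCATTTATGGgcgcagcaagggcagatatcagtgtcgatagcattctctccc
On both strands, an exact CArG box was found in the Ldb3 window only, 52 bases before the start, and in 1.64% of all 33469 windows. With at most 1 G or C allowed in the core, a search added after seeing the data, the Acta2 boxes 134 and 84 bases before the start were found as well, and 9.42% of all windows then held a match. TATAA, searched on both strands and able to overlap a CArG core, lay 40 bases before the start of Acta2 and in 26.2% of windows. The full estrogen response element (GGTCA, any 3 bases, then TGACC, which reads the same on both strands) was in none of the 6 windows and in 0.0269% of all.

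Intensities below are the deposited values, on a linear scale where each array has a median close to 1. Levels are not compared between probes, since probes differ in how strongly they bind; probes of a gene are numbered from the brightest. Each change is a difference of mean log2 values ± the standard error from a linear model over all 20 arrays, and is given relative to the median change of all tested probes: that median was -0.05 for ethinyl estradiol, -0.12 for estradiol benzoate, -0.17 for equilin, -0.03 for tamoxifen and -0.02 for raloxifene. A probe is said to pass where limma's p-value, adjusted over all tested probes by the Benjamini-Hochberg method, was under 0.05. In these whole-tissue samples, fewer smooth muscle cells and less RNA per cell cannot be told apart.

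No label names a batch, but 384 unnamed probes, evenly spaced in the probe numbers, divided the arrays into 2 sets. Their median was 0.69 to 1.84 on the centred log2 scale in the 9 estrogen arrays and vehicle array 1. It was -1.38 or lower in the 7 SERM arrays and vehicle arrays 2, 3 and 4. Over the 9013 probes above an intensity of 2 in every array, the vehicle arrays divided differently. Array 1 was nearest to array 2 (distance, the scaled median absolute log2 difference, 0.17), while arrays 3 and 4 lay 0.38 to 0.44 from arrays 1 and 2. Vehicle arrays 1 and 2 lay 0.18 to 0.42 from the estrogen arrays and 0.36 to 0.46 from the SERM arrays other than raloxifene array 3. Vehicle arrays 3 and 4 lay 0.33 to 0.58 from the estrogen arrays and 0.20 to 0.33 from the same SERM arrays. The array set, with vehicle array 2 among the SERM arrays, does not follow this division, and its part in the changes was not tested. Raloxifene array 3 stood apart, its correlations with the others averaging 0.777, against 0.902 to 0.954 for the rest, so raloxifene changes that it moves are also given without it. Pancreatic acinar markers (12 of 15 tested) had a mean log2 level of 6.21 in ethinyl estradiol array 3 against -1.41 to 3.79 in the other arrays, so ethinyl estradiol changes that it moves are given without it too.

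Among the arterial markers, Tagln, Myh11, Tpm1, Cnn1 and Synpo2 each had a probe in the bright end of the array. The single Acta2 probe (274112), by contrast, read near the array median in every rat, although its product is abundant in arterial muscle. It lay between 0.722 and 1.37 under ethinyl estradiol, 0.713 and 1.14 under estradiol benzoate, 0.512 and 0.899 under equilin, 0.573 and 0.983 under tamoxifen, 0.954 and 1.49 under raloxifene and 0.333 and 1.11 under vehicle. All groups but raloxifene spanned much of the vehicle range, and raloxifene overlapped its upper end (0.92 ± 0.31, and 0.87 without array 3). Why this probe is dim was not tested, so nothing about Acta2 is drawn from it.

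**Figure D1:**
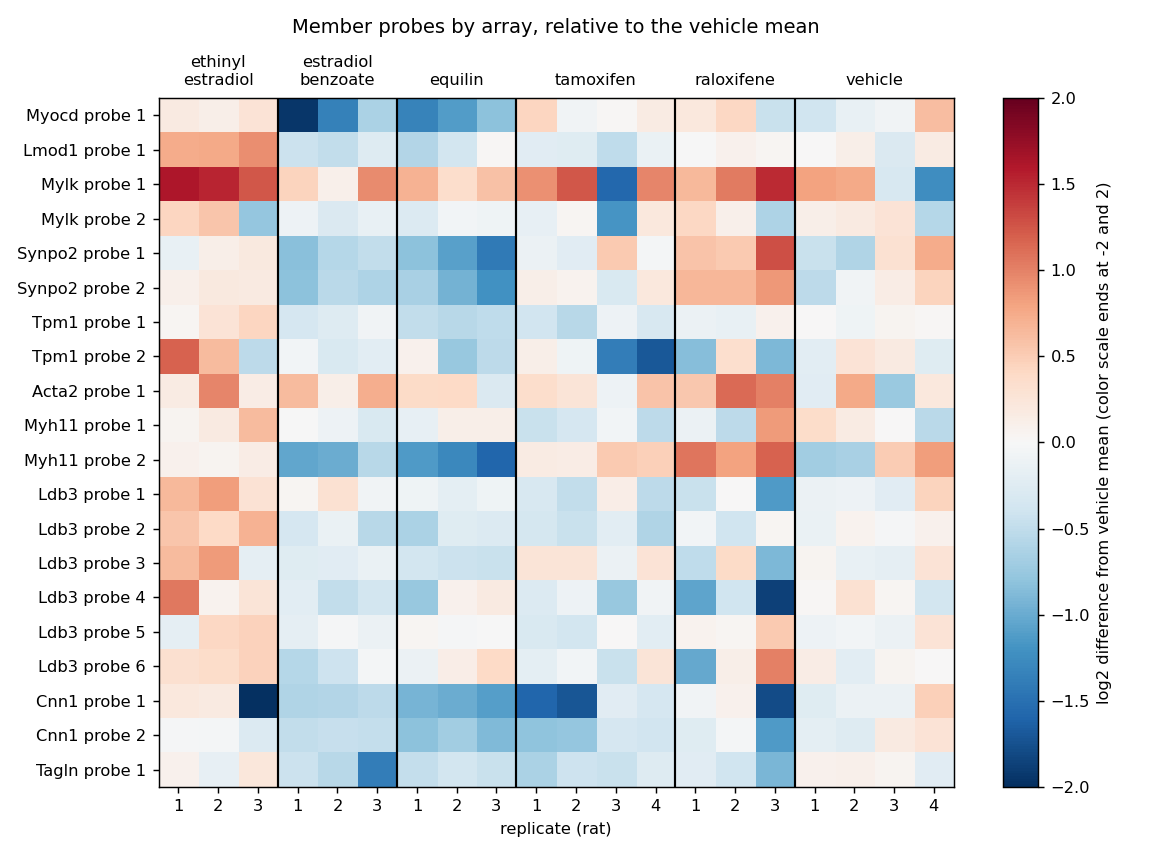
Log2 level of each of the 20 tested probes (rows) in each rat (columns, grouped by treatment) minus the vehicle mean of that probe; red is above and blue below that mean. Myocd, Synpo2 and Myh11 probe 2 are blue in all estradiol benzoate and equilin rats, Lmod1 is red in all ethinyl estradiol rats, and the vehicle columns 1 and 2 differ in color from 3 and 4 for Synpo2 probe 1 and Myh11 probe 2.

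Myocardin had low levels under estradiol benzoate and equilin. The Myocd probe (48019) read 0.877, 0.835 and 0.940 in ethinyl estradiol rats. It read 0.123, 0.236 and 0.452 in estradiol benzoate rats and 0.238, 0.299 and 0.386 in equilin rats. All 6 of these last rats lay below every other rat of the study. Tamoxifen rats had 1.02, 0.699, 0.744 and 0.836, raloxifene rats 0.867, 1.01 and 0.508, and vehicle rats 0.554, 0.641, 0.698 and 1.18. Ethinyl estradiol and both SERMs therefore overlapped the vehicle rats, although 1 raloxifene rat, array 3, was below them all. The change was -1.19 ± 0.28 for estradiol benzoate and -0.93 ± 0.28 for equilin, while it was 0.24 ± 0.28 for ethinyl estradiol, 0.16 ± 0.26 for tamoxifen and 0.09 ± 0.28 for raloxifene (0.35 without array 3). Because the readings lie near the added offset of 0.103, the size moves with it. With an offset of 0.5 times the median the fitted changes were -0.74 for estradiol benzoate and -0.65 for equilin. An offset of 0.02 times the median gave -1.28 for equilin. The lowest estradiol benzoate change over all alternatives, -1.65, came without its array 3. With the array set as a block the fitted changes were -0.92 ± 0.42 for estradiol benzoate, against -1.31 without it, and -0.70 ± 0.42 for equilin, against -1.10. Ethinyl estradiol then stood at 0.58 ± 0.42, against 0.19.

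The actin-anchoring gene Synpo2 followed the same order in both of its probes. Probe 1 (34105) read 46.9, 55.7 and 59.0 under ethinyl estradiol, 29.3, 35.0 and 36.7 under estradiol benzoate and 29.1, 24.7 and 19.5 under equilin. It read 46.3, 43.0, 71.9 and 48.8 under tamoxifen, 74.4, 72.3 and 123 under raloxifene and 37.9, 32.8, 62.0 and 84.3 under vehicle. The equilin rats were below and 2 of the raloxifene rats within the vehicle range, which itself was wide. Probe 2 (38085) read 35.5, 37.5 and 37.1 under ethinyl estradiol, 18.7, 22.6 and 21.5 under estradiol benzoate and 20.8, 17.3 and 14.3 under equilin. It read 34.5, 33.5, 25.9 and 37.1 under tamoxifen, 50.6, 50.5 and 58.0 under raloxifene and 22.7, 30.1, 35.4 and 43.6 under vehicle. On that probe estradiol benzoate and equilin lay wholly below the vehicle rats and raloxifene wholly above them. The changes of probes 1 and 2 were -0.51 ± 0.29 and -0.54 ± 0.20 for estradiol benzoate, -0.94 ± 0.29 and -0.76 ± 0.20 for equilin and 0.82 ± 0.29 and 0.76 ± 0.20 for raloxifene (0.59 and 0.70 without array 3). For ethinyl estradiol they were 0.10 ± 0.29 and 0.21 ± 0.20 (0.01 and 0.18 without its array 3) and for tamoxifen 0.06 ± 0.27 and 0.05 ± 0.19. Taking the array set as a block compares the estrogens with vehicle array 1 alone, and there the fitted changes were -0.18 and -0.13 for estradiol benzoate, against -0.63 and -0.66 without the block, and -0.66 and -0.40 for equilin, against -1.11 and -0.93. Ethinyl estradiol then stood at 0.50 and 0.69, against 0.05 and 0.16 without the block.

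The 2 probes of Myh11, the myosin heavy chain of smooth muscle, disagreed. Probe 1 (147074), the brighter, read 347, 373 and 513 under ethinyl estradiol, 332, 310 and 268 under estradiol benzoate, 297, 366 and 361 under equilin, 235, 255, 310 and 224 under tamoxifen, 295, 223 and 580 under raloxifene and 429, 357, 322 and 222 under vehicle. By this probe no group lay outside the vehicle range except for single rats, and its changes ran from -0.31 ± 0.25 (tamoxifen) to 0.34 ± 0.26 (ethinyl estradiol; 0.15 without its array 3). Raloxifene stood at 0.09 ± 0.26, and at -0.29 without array 3. Probe 2 (2102) read 125, 121 and 129 under ethinyl estradiol, 57.1, 58.8 and 79.4 under estradiol benzoate and 53.2, 48.4 and 38.8 under equilin. It read 126, 126, 163 and 158 under tamoxifen, 236, 198 and 256 under raloxifene and 71.7, 71.8, 161 and 201 under vehicle. All equilin rats were below the vehicle rats by this probe, 2 of the raloxifene rats were above the highest of them, and the other was close to it. Its changes were -0.75 ± 0.29 for estradiol benzoate, -1.17 ± 0.29 for equilin and 1.04 ± 0.29 for raloxifene (0.97 without array 3), and with the array set as a block the fitted change was -0.16 for estradiol benzoate, against -0.86 without it, and -0.63 for equilin, against -1.33. For ethinyl estradiol the fitted change of probe 2 was 0.80 with the block, against 0.10 without it. Across the 20 arrays the probes correlated at -0.10, so a statement about Myh11 holds for one probe at a time; the sources used here do not say which transcript or sequence each probe reads.

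**Figure D2:**
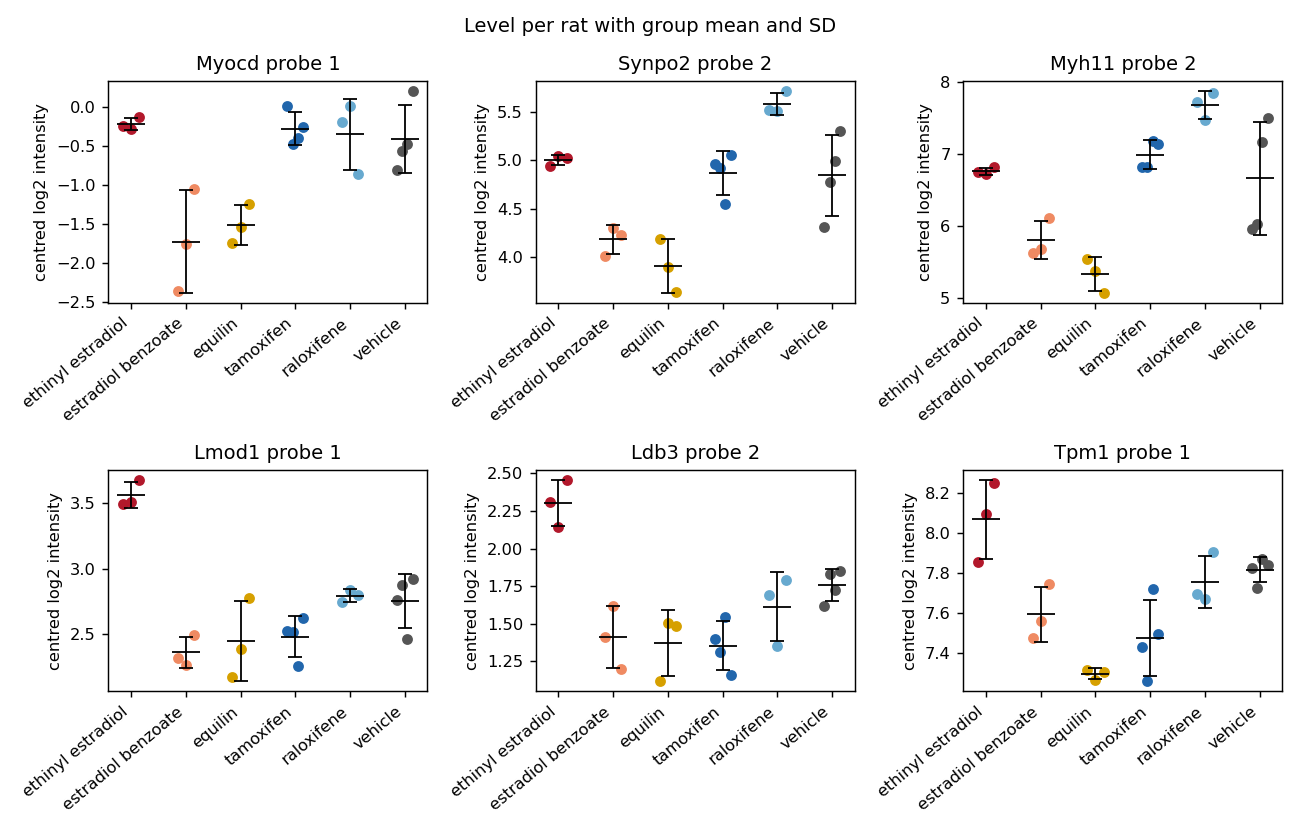
Centred log2 intensity of 6 probes in each rat (points) with the group mean and SD (bars), for groups of 3 or 4 rats. The upper row shows probes that are low under estradiol benzoate and equilin, with wide vehicle groups, and the lower row probes whose highest group is ethinyl estradiol.

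Leiomodin was highest under ethinyl estradiol. The Lmod1 probe (290032), for the smooth muscle leiomodin that nucleates actin filaments, read 13.0, 13.0 and 14.6 under ethinyl estradiol, 5.67, 5.42 and 6.36 under estradiol benzoate, 5.05, 5.98 and 7.80 under equilin, 6.29, 6.26, 5.20 and 6.78 under tamoxifen, 7.33, 7.86 and 7.61 under raloxifene and 7.68, 7.99, 6.02 and 8.30 under vehicle. The 3 ethinyl estradiol rats were above all 17 others, and every other group overlapped vehicle. The change was 0.87 ± 0.16 for ethinyl estradiol (0.79 without its array 3), while the other compounds stood between -0.28 ± 0.16 (estradiol benzoate) and 0.07 ± 0.16 (raloxifene; 0.08 without array 3). With the array set as a block the fitted ethinyl estradiol change was 0.81, the same as without it.

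Ldb3 had 6 probes, and one of them shared that pattern. Probe 2 (300037) read 5.63, 4.97 and 6.17 under ethinyl estradiol, 2.98, 3.43 and 2.54 under estradiol benzoate, 2.38, 3.21 and 3.13 under equilin, 2.84, 2.67, 3.15 and 2.40 under tamoxifen, 3.49, 2.74 and 3.74 under raloxifene and 3.42, 3.82, 3.58 and 3.90 under vehicle. Ethinyl estradiol was again above every other rat, and equilin and tamoxifen lay below the vehicle rats. Ldb3 probe 1, the brightest, read 13.9 to 20.5 under ethinyl estradiol, 10.9 to 14.3 under estradiol benzoate, 10.1 to 10.8 under equilin, 7.71 to 12.3 under tamoxifen, 4.98 to 11.1 under raloxifene and 9.44 to 15.2 under vehicle. Ldb3 probe 3 read 3.07 to 6.36 under ethinyl estradiol, 2.97 to 3.17 under estradiol benzoate, 2.55 to 2.68 under equilin, 3.11 to 4.12 under tamoxifen, 1.77 to 4.46 under raloxifene and 2.97 to 4.11 under vehicle. Ethinyl estradiol overlapped vehicle on both, and equilin lay below vehicle on probe 3. Ldb3 probe 4 read 3.14 to 6.4 under ethinyl estradiol, 2.11 to 2.61 under estradiol benzoate, 1.73 to 3.43 under equilin, 1.67 to 2.79 under tamoxifen, 0.720 to 2.19 under raloxifene and 2.23 to 3.57 under vehicle, so raloxifene was wholly below vehicle. Ldb3 probe 5 read 1.80 to 2.83 under ethinyl estradiol, 1.82 to 2.01 under estradiol benzoate, 2.04 to 2.11 under equilin, 1.52 to 2.00 under tamoxifen, 2.04 to 2.88 under raloxifene and 1.81 to 2.42 under vehicle, and each group overlapped vehicle. Ldb3 probe 6, the dimmest, read 0.693 to 0.762 under ethinyl estradiol, 0.324 to 0.512 under estradiol benzoate, 0.476 to 0.728 under equilin, 0.346 to 0.633 under tamoxifen, 0.197 to 1.13 under raloxifene and 0.422 to 0.592 under vehicle. The 6 probes gave ethinyl estradiol changes of 0.28 ± 0.17 (probe 5; 0.15 without array 3) to 0.65 ± 0.24 (probe 1; 0.78 without array 3), all in the same direction, of which probes 2 and 6 did not overlap vehicle. For the other compounds the probes disagreed in sign, most widely under raloxifene, from -1.08 ± 0.32 (probe 4; -0.69 without array 3) to 0.23 ± 0.17 (probe 5; 0.09 without array 3). Pairs of Ldb3 probes correlated between -0.37 and 0.62 across arrays.

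Myosin light chain kinase was measured by a variable probe. Mylk probe 1 (83104) read 6.23, 5.77 and 4.76 under ethinyl estradiol, 2.73, 2.11 and 3.87 under estradiol benzoate and 3.21, 2.56 and 3.01 under equilin. It read 3.67, 4.62, 0.572 and 3.85 under tamoxifen, 3.00, 4.00 and 5.48 under raloxifene and 3.48, 3.25, 1.50 and 0.735 under vehicle. Ethinyl estradiol was above all vehicle rats, whose lowest and highest differed several-fold. The change for ethinyl estradiol was 1.51 ± 0.55, and the fitted value was 0.66 with the array set as a block, where vehicle arrays 2, 3 and 4 do not enter the difference. Raloxifene stood at 1.08 ± 0.55, and at 0.88 without array 3. Estradiol benzoate (0.62 ± 0.55), equilin (0.71 ± 0.55) and tamoxifen (0.42 ± 0.51) were above vehicle too. With the block the fitted values were -0.30 for estradiol benzoate, against 0.50 without it, and -0.26 for equilin, against 0.55. Those of tamoxifen and raloxifene were 0.66 and 1.33 with the block, against 0.40 and 1.06. Mylk probe 2 (135045), with readings of 0.282 to 1.21, stood at 0.12 ± 0.34 for ethinyl estradiol (0.52 without array 3), and the other compounds lay between -0.25 ± 0.32 and 0.03 ± 0.34 (raloxifene -0.01, and 0.29 without array 3). The probes correlated at 0.51.

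The thin filament proteins Tpm1, Cnn1 and Tagln were lowest under equilin, tamoxifen or estradiol benzoate. Tpm1 probe 1 (83033), for tropomyosin, read 268, 313 and 348 under ethinyl estradiol, 206, 217 and 246 under estradiol benzoate and 183, 179 and 183 under equilin. It read 192, 171, 235 and 202 under tamoxifen, 230, 226 and 266 under raloxifene and 261, 234, 261 and 255 under vehicle. Equilin lay clearly below all vehicle rats, and 1 tamoxifen rat (centred log2 level 7.72) was level with the lowest vehicle rat (7.73). The changes were -0.35 ± 0.14 for equilin, -0.31 ± 0.13 for tamoxifen and 0.30 ± 0.14 for ethinyl estradiol (0.20 without its array 3), and with quantile normalisation the fitted ethinyl estradiol value was 0.04. Tpm1 probe 2 (290035) read 1.28 to 4.44 under ethinyl estradiol, 1.52 to 1.83 under estradiol benzoate, 1.09 to 2.00 under equilin, 0.494 to 1.99 under tamoxifen, 0.928 to 2.32 under raloxifene and 1.54 to 2.22 under vehicle, and all groups overlapped vehicle. Its change was 0.49 ± 0.44 for ethinyl estradiol (0.95 without array 3), -0.07 ± 0.44 for estradiol benzoate, -0.23 ± 0.44 for equilin, -0.73 ± 0.41 for tamoxifen and -0.45 ± 0.44 for raloxifene (-0.22 without array 3). This probe correlated with probe 1 at 0.18, and at -0.66 once group means were subtracted.

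Calponin showed both a group difference and single arrays far from their group. Cnn1 probe 2 (90067) read 99.2, 96.9 and 82.4 under ethinyl estradiol, 71.7, 72.8 and 72.0 under estradiol benzoate, 56.1, 62.2 and 54.0 under equilin, 55.0, 56.4, 76.8 and 74.5 under tamoxifen, 81.6, 94.0 and 44.0 under raloxifene and 87.4, 80.1, 109 and 116 under vehicle. Estradiol benzoate, equilin and tamoxifen were each wholly below vehicle, with changes of -0.35 ± 0.22, -0.63 ± 0.22 and -0.55 ± 0.20. Raloxifene stood at -0.44 ± 0.22, and at -0.10 without array 3. Cnn1 probe 1 (155056) read 150, 146 and 22.9 under ethinyl estradiol, 85.9, 85.6 and 90.1 under estradiol benzoate, 67.3, 65.8 and 60.1 under equilin, 41.4, 37.9, 107 and 99.6 under tamoxifen and 118, 132 and 36.1 under raloxifene, against 109, 114, 115 and 173 under vehicle. Estradiol benzoate and equilin lay wholly below vehicle, and the 4 lowest readings belonged to ethinyl estradiol array 3, tamoxifen arrays 1 and 2 and raloxifene array 3. By intensity all tamoxifen rats were below vehicle too, but on centred log2 levels tamoxifen array 3 (6.59) was level with vehicle array 1 (6.56). The changes were -0.45 ± 0.56 for estradiol benzoate, -0.84 ± 0.56 for equilin and -0.94 ± 0.52 for tamoxifen. The change of that probe for ethinyl estradiol was -0.64 ± 0.56, and 0.23 without array 3; for raloxifene it was -0.57 ± 0.56, and 0.04 without array 3. Mean pancreatic marker levels were 6.21 in ethinyl estradiol array 3, 2.98 and 3.79 in tamoxifen arrays 1 and 2, -0.93 in raloxifene array 3 and 3.38 in vehicle array 1; their part in the Cnn1 readings was not tested.

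Transgelin, a calponin-related actin-binding protein, read 298, 248 and 323 by its probe (114061) under ethinyl estradiol, 208, 188 and 106 under estradiol benzoate, 198, 217 and 205 under equilin, 174, 202, 197 and 225 under tamoxifen, 230, 203 and 143 under raloxifene and 293, 285, 280 and 229 under vehicle. Estradiol benzoate, equilin and tamoxifen lay below all vehicle rats, with changes of -0.68 ± 0.21, -0.27 ± 0.21 and -0.41 ± 0.19, and estradiol benzoate array 3 was the lowest of the study. Without that array the fitted estradiol benzoate change was -0.50, against -0.79 with it. Raloxifene stood at -0.49 ± 0.21, or -0.28 without array 3, and ethinyl estradiol at 0.11 ± 0.21, or 0.00 without its array 3.

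**Figure D3:**
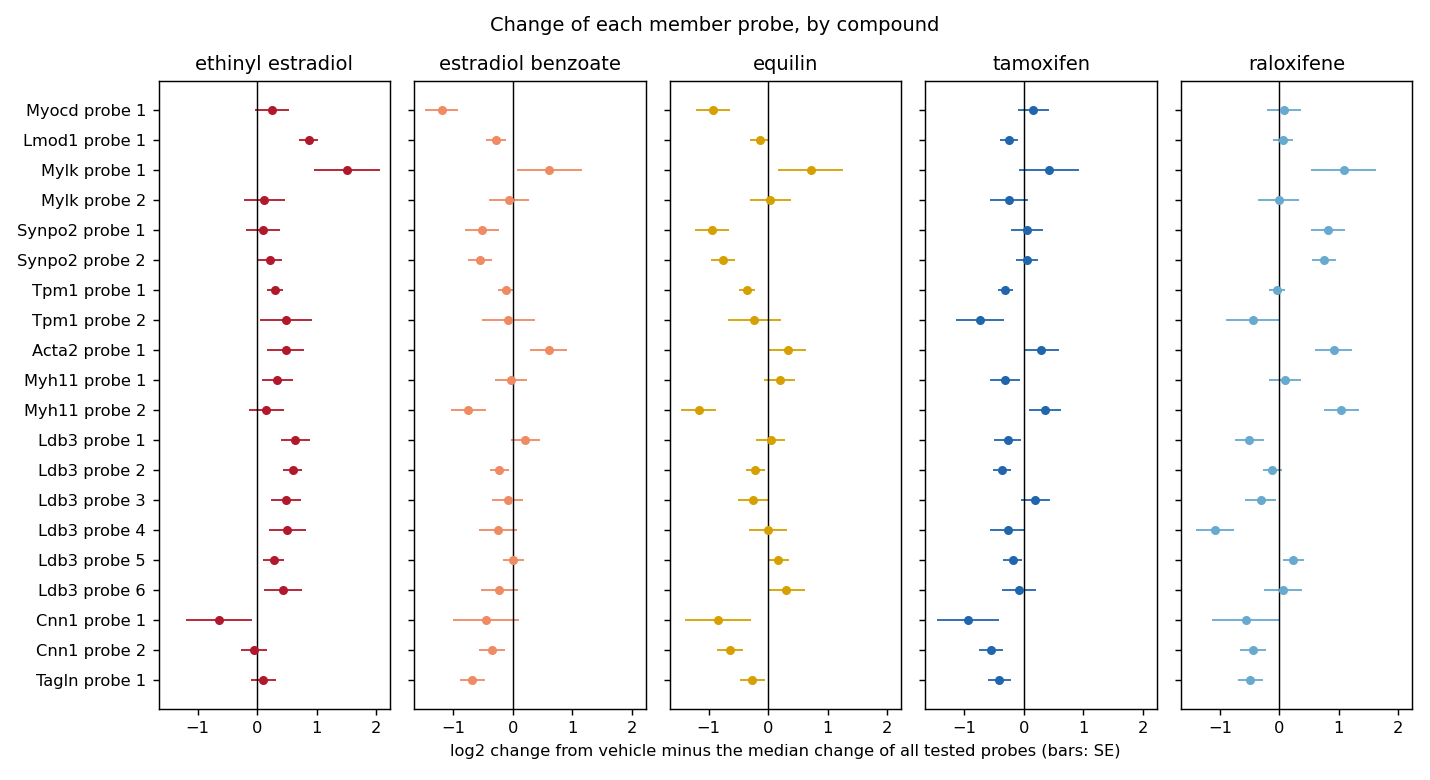
Log2 change from vehicle of each tested probe, minus the median change of all tested probes, for the 5 compounds; bars are standard errors of the fit. Ethinyl estradiol points lie mostly right of 0 and tamoxifen points mostly left of it, while Myocd, Synpo2 and Myh11 probe 2 lie left under estradiol benzoate and equilin and Synpo2 and Myh11 probe 2 lie right under raloxifene.

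Counted over the 20 tested probes relative to the median, 18 were higher and 2 lower under ethinyl estradiol (20 higher without its array 3), 4 and 16 under estradiol benzoate, 8 and 12 under equilin, 7 and 13 under tamoxifen, and 10 and 10 under raloxifene. The median of the 20 probes was 0.32 for ethinyl estradiol, -0.22 for estradiol benzoate, -0.22 for equilin, -0.25 for tamoxifen and 0.02 for raloxifene (0.01 without array 3), where that of all tested probes is 0 by construction. Lmod1, higher, was the single probe past the threshold for ethinyl estradiol, where 1.2% of all tested probes passed (0.541% higher and 0.66% lower). Myocd, lower, was the single one for estradiol benzoate (0.7%, with 0.635% higher and 0.0651% lower). Once the evenly spaced probes were left out of the test, neither Myocd nor any other probe of the array passed for estradiol benzoate (0%). For equilin (3.69%, with 1.75% higher and 1.94% lower), Myocd, Synpo2 probes 1 and 2, Tpm1 probe 1, Myh11 probe 2 and Cnn1 probe 2 were past the threshold, all lower, and with quantile normalisation Myocd and Myh11 probe 2 (2.99% of all tested probes). None was past it by limma for tamoxifen (0.224%, with 0.0366% higher and 0.187% lower) or raloxifene (2.04%, with 0.725% higher and 1.32% lower), although with quantile normalisation Synpo2 probe 2 and Myh11 probe 2 were for raloxifene (1.95% of all tested probes). With the array set as a block none of the 20 was past it for any compound against vehicle. Few probes of the array were then: 0.546% for ethinyl estradiol, 0.407% for estradiol benzoate, 0.647% for equilin, 0.106% for tamoxifen and 0.0774% for raloxifene. Without the evenly spaced probes 0.677% of the probes passed for ethinyl estradiol, Lmod1 among them. For equilin 1.15% then passed, Synpo2 probe 2 and Myh11 probe 2 among them. The counts hang on single arrays. The ethinyl estradiol count was 0 without any one of ethinyl estradiol arrays 1, 2 and 3 or vehicle array 3, the equilin count was 0 without any one of equilin arrays 2 and 3 or vehicle arrays 3 and 4, and the estradiol benzoate count was 0 without any single array other than vehicle array 1 or raloxifene array 3. Since the genes were picked from these contrasts, nothing is read from these counts.

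Groups that did not overlap vehicle are counted in the same way, on centred log2 values. Higher than every vehicle rat were 4 probes for ethinyl estradiol (Lmod1, Mylk probe 1 and Ldb3 probes 2 and 6), where 5.32% of all tested probes were, and 0 for estradiol benzoate (3.67%), equilin (6.95%) and tamoxifen (2.16%). Lower than every vehicle rat were 0 probes for ethinyl estradiol (7.69% of all), 5 for estradiol benzoate (10.2%), 10 for equilin (22.4%) and 4 for tamoxifen (4.49%). Raloxifene had 1 on each side, Synpo2 probe 2 above (6.19%) and Ldb3 probe 4 below (10.8%).

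The matched doses allow 4 pairs of compounds to be set against each other, and these differences are given as fitted, with 95% intervals. Ethinyl estradiol differs from estradiol benzoate in an added ethynyl group and in lacking the benzoate ester. Of the 20 probes, 18 were higher under ethinyl estradiol than under estradiol benzoate, with a median difference of 0.66 against 0.03 for all tested probes; without ethinyl estradiol array 3 all 20 were. In 13 of them all ethinyl estradiol rats were higher (15.7% of all tested probes), and in 0 all were lower (7.26%). Myocd differed by 1.50 (0.86 to 2.14), Lmod1 by 1.21 (0.84 to 1.57) and Ldb3 probe 2 by 0.89 (0.53 to 1.25), and these 3 were past the threshold (0.281% of all tested probes, with 0.167% higher and 0.114% lower). Myh11 probe 2 differed by 0.96 (0.30 to 1.62), Tagln by 0.84 (0.38 to 1.31) and Synpo2 probe 2 by 0.82 (0.36 to 1.27). The Acta2 probe, at -0.06 (-0.76 to 0.63), gave no difference larger than its spread.

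Equilin, from horses, carries a ketone and one more double bond in its rings. All 20 probes were higher under ethinyl estradiol than under equilin, with a median difference of 0.74 against 0.08 for all tested probes, and in 12 of them all ethinyl estradiol rats were higher (17.1% of all), while in 0 all were lower (4.89%). With quantile normalisation the median difference from ethinyl estradiol was 0.54 for equilin and 0.59 for estradiol benzoate, so neither compound lay further from it under both scalings. Lmod1 differed by 1.12 (0.75 to 1.49), Synpo2 probe 2 by 1.09 (0.64 to 1.55), Ldb3 probe 2 by 0.93 (0.57 to 1.30) and Tpm1 probe 1 by 0.77 (0.47 to 1.07). These 4 were past the threshold (0.175% of all tested probes, with 0.147% higher and 0.0285% lower), and none was with quantile normalisation or without any one of ethinyl estradiol arrays 1 and 3 or equilin arrays 1 and 2, against 7 without raloxifene array 3 (1.23% of all tested probes). Myh11 probe 2 differed by 1.43 (0.78 to 2.09) and Myocd by 1.29 (0.65 to 1.93). Both comparisons use the same ethinyl estradiol rats.

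Equilin and estradiol benzoate differed less. Between them 9 probes were positive and 11 negative, the median was -0.13 against -0.05 for all tested probes, and no tested probe of the array passed by limma (0%; 836 of 24562 had an unadjusted p under 0.05). The intervals still allow sizeable differences: Myocd stood at 0.22 (-0.42 to 0.86), Synpo2 probe 1 at -0.48 (-1.13 to 0.17), Myh11 probe 2 at -0.47 (-1.13 to 0.19) and Tagln at 0.36 (-0.10 to 0.82). The 3 equilin rats lay below the 3 estradiol benzoate rats for 6 probes (13.3% of all) and above them for 1 (6.33%), the 6 including Tpm1 probe 1 at -0.30 (-0.60 to 0.01) and both Cnn1 probes.

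Over all 20 arrays tamoxifen, a triphenylethylene, and raloxifene, a benzothiophene, differed most in Ldb3 probe 4, which was higher under tamoxifen, and in Synpo2 and Myh11 probe 2, which were lower under it. Relative to raloxifene, 5 probes were higher under tamoxifen and 15 lower, with a median of -0.28 against -0.02 for all tested probes, with 5 wholly lower (3.54% of all) and 0 wholly higher (4.74%). Synpo2 probes 1 and 2 differed by -0.77 (-1.37 to -0.16) and -0.71 (-1.13 to -0.28), Myh11 probe 2 by -0.69 (-1.31 to -0.08), Ldb3 probe 4 by 0.80 (0.14 to 1.47), Ldb3 probe 5 by -0.43 (-0.79 to -0.06) and Lmod1 by -0.32 (-0.66 to 0.03). Myocd, at 0.07 (-0.53 to 0.67), and Tagln, at 0.07 (-0.36 to 0.51), gave no difference larger than their spread. None of the 20 was past the threshold, which 0.00407% of all tested probes passed. Without raloxifene array 3 the Synpo2 differences were -0.52 and -0.64, that of Myh11 probe 2 was -0.61 and that of Ldb3 probe 4 was 0.42. The order of the largest differences rests on that array, since Cnn1 probe 1 then differed more than these. Its mean centred log2 level was 5.84 under tamoxifen, against 6.73 and 6.89 in raloxifene arrays 1 and 2 and 5.03 in array 3. Without array 3, 3 probes were higher under tamoxifen and 17 lower, relative to the median of all tested probes. Estrogens and SERMs were given at different doses and are not compared.

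**Figure D4:**
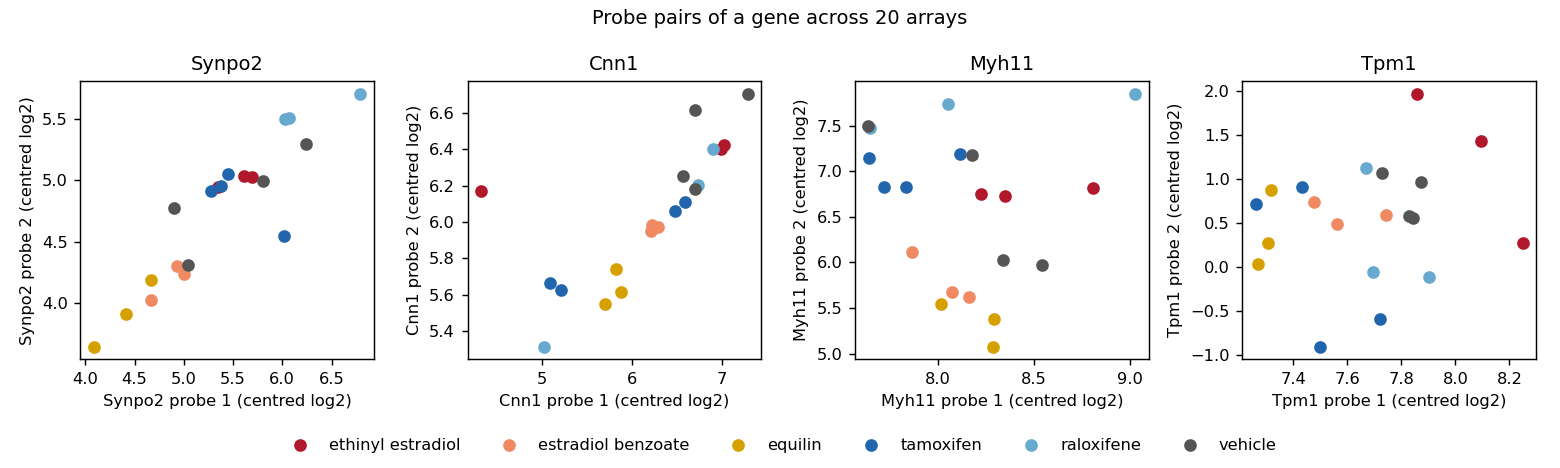
Centred log2 intensity of one probe against another probe of the same gene in the 20 arrays, colored by group. Synpo2 probes run along a diagonal, Cnn1 probes do so apart from ethinyl estradiol array 3, and the Myh11 and Tpm1 pairs scatter.

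The genes did not vary as one block across rats. As a description over 20 arrays that share their normalisation, Synpo2 probe 1 and Myh11 probe 2 correlated at 0.96, and at 0.87 after group means were subtracted, and the Synpo2 probes correlated at 0.90 with each other. Myocd correlated with Myh11 probe 2 at 0.77 and with Synpo2 probe 2 at 0.75, or 0.40 and 0.32 within groups. Lmod1 and Ldb3 probe 2 correlated at 0.83 across all arrays but at 0.05 within groups. The probes most like the mean of the 10 genes (1 probe a gene) over the 20 arrays, out of 13245 probes with 1 symbol, were those of Mark1 (r = 0.84), the lipoprotein receptor gene Vldlr (0.83), Atoh8 (0.83), the cadherin gene Cdh6 (0.83) and the calcium channel subunit gene Cacnb2 (0.80). After group means were subtracted they were Lsm12, the muscle cofilin gene Cfl2, Dcaf5, Col11a1 and Parg, at 0.76 to 0.80. Those most like Myocd were Mertk (0.87), Cdh6 (0.86), Timp4, Unc45a and Npy1r (0.85 each), and after group means were subtracted Cntn2, Sec31b, Cdh6, L3mbtl3 and Plaat1, at 0.76 to 0.79. These names depend on raloxifene array 3: without it, Olr59 and Mustn1 took the places of Atoh8 and Cdh6 for the mean of the genes, and for Myocd the names were Rbfox2, Morc2, Eef2k, Mertk and Fastkd2 (0.87 to 0.88).

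Other genes of the contractile machinery, which are not among the 10, were tested with 1 probe a gene. Under equilin 2 of 21 passed, both lower: Pdlim3, an actin-associated PDZ and LIM protein, changed by -0.63 ± 0.18 (limma adjusted p = 0.0215) and Itga8, an integrin chain of smooth muscle, by -0.84 ± 0.28 (limma adjusted p = 0.0491), and for both the adjusted p was above 0.05 with quantile normalisation (0.0691 and 0.137). The count was 8 without raloxifene array 3, which enters through the variance alone. Of all tested probes 12.5% passed for equilin without that array, against 3.69% with it. The count of listed genes was 0 without any of equilin arrays 1, 2 and 3 or vehicle arrays 3 and 4. Under the other compounds 0 of 21 passed by limma; at an unadjusted p under 0.05 there were 1 higher for ethinyl estradiol, 3 lower for estradiol benzoate, 1 higher and 10 lower for equilin, 2 lower for tamoxifen and 3 lower for raloxifene. Of all tested probes, 13.9%, 7.69%, 21.4%, 8.97% and 27.6% had such a p for these compounds in the same order. The list median relative to all tested probes was 0.18 for ethinyl estradiol, -0.14 for estradiol benzoate, -0.22 for equilin, -0.25 for tamoxifen and 0.01 for raloxifene. The lists were written with earlier results of these data known.

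**Figure D5:**
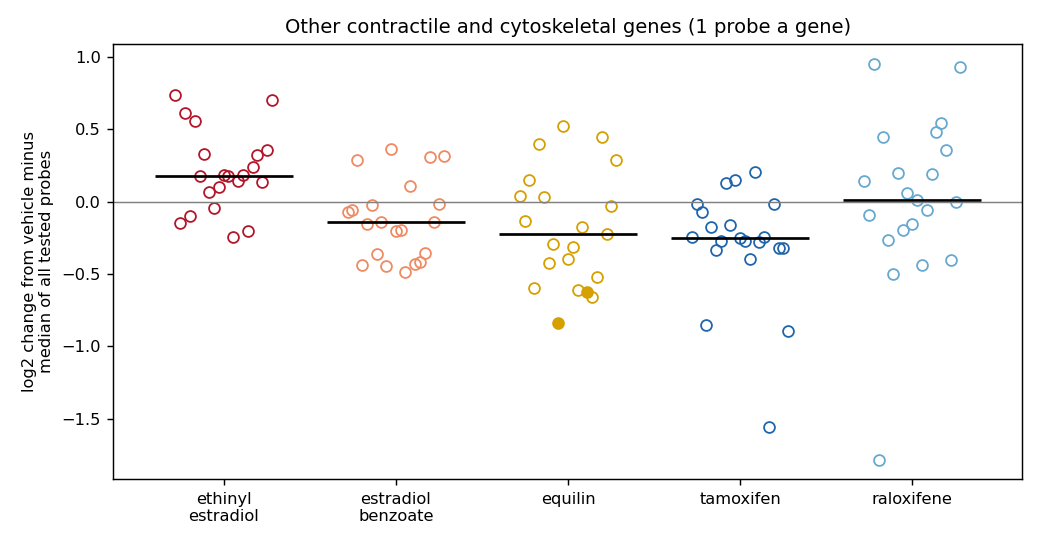
Log2 change from vehicle, minus the median of all tested probes, of 21 other contractile and cytoskeletal genes under each compound (1 point a gene, filled where limma's adjusted p is under 0.05; lines are medians). The medians lie at 0.18, -0.14, -0.22, -0.25 and 0.01 from left to right, and the 2 filled points, Pdlim3 and Itga8, are under equilin.

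Of 17 tested genes that control phosphorylation of the myosin light chain, 1 passed for ethinyl estradiol and 1 for equilin, both lower, and 1 for raloxifene, higher. Of all tested probes 0.66% and 1.94% passed as lower for the first 2 compounds and 0.725% as higher for raloxifene. Rgs5, a regulator of G protein signalling, changed under ethinyl estradiol by -1.06 ± 0.25 (limma adjusted p = 0.0423; 0.0782 with quantile normalisation). Prkg1, the cyclic GMP-dependent kinase of the nitric oxide pathway, changed under equilin by -1.14 ± 0.24 (limma adjusted p = 0.0138). None passed for estradiol benzoate or tamoxifen. At an unadjusted limma p under 0.05 there were 2 lower for ethinyl estradiol, 3 lower for estradiol benzoate and 11 lower for equilin. Tamoxifen had 1 higher and 3 lower, and raloxifene 1 higher and 2 lower. Such a p, in either direction, was found for 13.9%, 7.69%, 21.4%, 8.97% and 27.6% of all tested probes, in that order. With the array set as a block neither Rgs5 nor Prkg1 passed. The ethinyl estradiol count was 0 without any single array other than ethinyl estradiol 3, tamoxifen 3, raloxifene 2, raloxifene 3 or vehicle 1, and 2 without raloxifene 3 (3.025% of all tested probes). The equilin count was 0 without equilin 2, equilin 3 or vehicle 3 and 7 without raloxifene 3 (12.5% of all tested probes). The list median relative to all tested probes was 0.00 for ethinyl estradiol, -0.21 for estradiol benzoate, -0.35 for equilin, -0.06 for tamoxifen and 0.26 for raloxifene.

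Genes of serum response factor and myocardin control other than Myocd gave no probe past the threshold by limma for any compound (0 of 17), with 1 to 5 at an unadjusted p under 0.05 and list medians between -0.09 and 0.08. The count for equilin was 3 without raloxifene array 3, where 12.5% of all tested probes passed. Of 13 synthetic state genes, which smooth muscle cells express when they lose contractile character, Lgals3, the gene of galectin 3, changed under raloxifene by -1.02 ± 0.25 (limma adjusted p = 0.0431), and did not pass without raloxifene array 3 or without many other single arrays, tamoxifen 1 and vehicle 1 among them. The other compounds had 0, with 1 to 3 at an unadjusted p under 0.05, and list medians were -0.32, -0.06, -0.28, -0.25 and -0.18 in the order ethinyl estradiol, estradiol benzoate, equilin, tamoxifen and raloxifene.

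Markers of neighbouring cell types moved with some groups. The mean log2 level of 11 fibroblast markers was 3.67 to 4.00 under ethinyl estradiol, 4.08 to 4.31 under estradiol benzoate, 3.79 to 3.98 under equilin, 3.87 to 4.28 under tamoxifen, 3.40 to 4.18 under raloxifene and 4.14 to 4.63 under vehicle. Of these 11, 3 passed as lower for ethinyl estradiol, 2 for equilin, 1 for tamoxifen, 1 for raloxifene and 0 for estradiol benzoate. Of all tested probes 0.66%, 1.94%, 0.187%, 1.32% and 0.0651% passed as lower, in that order. They included Serpinf1 for ethinyl estradiol and equilin, and Col1a1, a fibrillar collagen chain, for ethinyl estradiol, tamoxifen and raloxifene. The 13 cardiac and skeletal muscle markers ran from 0.44 to 0.69 under ethinyl estradiol, 0.54 to 0.66 under estradiol benzoate, 0.37 to 0.51 under equilin, 0.42 to 0.88 under tamoxifen, 0.87 to 1.06 under raloxifene and 0.57 to 1.10 under vehicle, with Myh2 lower for ethinyl estradiol and Casq1 for equilin. The 7 pericyte markers, Rgs5 among them, were 3.34 to 3.71 under ethinyl estradiol, 3.58 to 3.80 under estradiol benzoate and 3.31 to 3.43 under equilin. All 3 groups lay below the 3.85 to 4.12 of vehicle, while tamoxifen (3.47 to 3.93) and raloxifene (3.76 to 3.86) overlapped it. The 10 adipocyte markers were 5.16 to 5.29 under equilin and 4.49 to 4.88 under raloxifene, against 4.87 to 5.19 under vehicle, and both groups overlapped vehicle. The 11 endothelial markers were 4.11 to 4.34 under ethinyl estradiol, 4.23 to 4.30 under equilin and 4.10 to 4.35 under raloxifene, against 4.39 to 4.51 under vehicle, and overlapped vehicle under estradiol benzoate and tamoxifen. Enteric (7) and mesothelial (6) markers overlapped vehicle in every group except equilin for the mesothelial list, at 0.60 to 0.80 against 0.94 to 1.34, and Gpm6a of that list passed as lower for raloxifene. The part of these cell types in the levels of the contractile genes was not tested.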

How the data were processed

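Gene expression was measured in mesenteric arteries of 20 rats on 1-colour arrays with 35129 probes. The deposited values are linear intensities that the authors had background-subtracted and scaled for each array, as the values themselves show: array medians ran from 1.0007 to 1.0612 and 5314 values are negative. The sources used here do not say which software made them. Scaling to a common median hides any change shared by most genes. Gene names came from the platform annotation: 16865 probes have 1 symbol, 165 several and 18099 none.

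Negative intensities were raised to 0. Each intensity then had 0.103 (0.1 times the overall median) added before log2, which understates changes of dim probes, and arrays were centred on their medians. Probes missing in over 1 array of a group and the lowest 30% by mean were left out, and the 24562 remaining probes were tested in a single model of the 6 group means over 20 arrays (limma 3.58.1, R 4.3.3, variance trend, Benjamini-Hochberg adjustment). The procedure was tested on simulated data. Gene lists used the complete probe of highest mean per gene. All probes of the 10 genes are described, genes of other lists are named where they passed (up to 6 a list; up to 2 of a marker list), and 5 probes are named for each likeness. One probe shared by Acta2 and other actin genes is not used, and 1 result that this rule would name is not reported here.

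Each array is 1 rat, so replicates are animals, and array number limits the precision. The genes and lists were chosen with earlier results of these data known. Alternatives were quantile normalisation, no centring, 2 other offsets, 2 other filters, no variance trend, array weights, only the groups compared, replicate number or array set as a block, the evenly spaced probes left out, the mean over a gene's probes and each array left out in turn. Leaving out raloxifene array 3 with ethinyl estradiol array 3, and the relaxed CArG search, were chosen after seeing the data.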

Additional observations from a re-analysis of the deposited data

Results flagged for a closer look

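In groups of 4 rats, 1 rat lay far from the other 3 for 4 of 40 probe and group pairs examined; about 1 in 20 would be picked out by chance, and all values here are centred log2 levels. By the ratio of the gap to the range, Mylk probe 1 was low in tamoxifen array 3 (0.884), at -0.72 against 1.76 to 2.08 in the other tamoxifen rats. Ldb3 probe 3 was low in the same array (0.960), at 1.53 against 1.90 to 1.92. Tagln was low in vehicle array 4 (0.882), at 7.69 against 7.97 to 8.01 in the other vehicle rats. Ldb3 probe 5 was high in that array (0.831), at 1.18 against 0.78 to 0.85.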

How the results depend on the processing

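Of 297 recomputed medians of the 20 probes 294 stayed within 1 SD of the rats. Of 680 counts of listed genes 555 stayed within 1.5 times, as did 206 of 297 counts of probes past the threshold among the 20. No change past the threshold turned its sign, while 128 of 5904 recomputed single-probe changes did. Many of these alternatives cannot move a fitted change. They are an array left out of a group not compared, no variance trend, only the groups compared and the evenly spaced probes left out. The shares of medians and signs that held therefore say little about robustness. Values here are as fitted. Quantile normalisation gave medians of -0.20 for equilin and 0.54 for ethinyl estradiol minus equilin, and the array set block 0.47 for ethinyl estradiol, against -0.39, 0.74 and 0.27. Without single arrays the medians ran from 0.23 to 0.34 (ethinyl estradiol), -0.34 to -0.29 (estradiol benzoate), -0.41 to -0.33 (equilin), -0.29 to -0.17 (tamoxifen), -0.08 to 0.00 (raloxifene), 0.56 to 0.76 and 0.67 to 0.86 (ethinyl estradiol minus estradiol benzoate and equilin), -0.16 to -0.07 (equilin minus estradiol benzoate) and -0.33 to -0.22 (tamoxifen minus raloxifene).

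Probes past the threshold among the 20 numbered 1 for ethinyl estradiol, 1 for estradiol benzoate, 6 for equilin, 0 for tamoxifen and raloxifene, 3 for ethinyl estradiol minus estradiol benzoate and 4 for ethinyl estradiol minus equilin. Without single arrays these counts ran 0 to 1, 0 to 2, 0 to 6, 0 to 0, 0 to 4, 1 to 4 and 0 to 7, and 0 to 0 for the other pairs. The share of all tested probes moves as well. Without raloxifene array 3 it was 3.03% for ethinyl estradiol, 0.859% for estradiol benzoate, 12.5% for equilin and 1.23% for ethinyl estradiol minus equilin. Shares without the other arrays are not given, so nothing about the 20 probes is read from these ranges. Equilin gave 2 with quantile normalisation, no filter, only the groups compared or without the evenly spaced probes, 3 with no centring, 1 with the replicate block and 0 with the array set block. Of all tested probes 2.99% passed for it with quantile normalisation, 1.15% without the evenly spaced probes, 1.49% with the replicate block and 0.647% with the array set block. Estradiol benzoate gave 0 with the smaller offset, the stricter filter, only the groups compared, either block or without the evenly spaced probes, and 2 with array weights or without raloxifene 3 and ethinyl estradiol 3. With array weights 2.00% of all tested probes passed, with the array set block 0.407%, and 0% did without the evenly spaced probes or with the replicate block. Ethinyl estradiol gave 0 with only the groups compared or either block, where 0.252% (replicate block) and 0.546% (array set block) of all tested probes passed. Raloxifene gave 2 with quantile normalisation or the replicate block (1.95% and 2.06% of all tested probes). Ethinyl estradiol minus estradiol benzoate gave 1 with no filter or the replicate block and 0 with only the groups compared; minus equilin it gave 0 with quantile normalisation or only the groups compared and 1 with no filter. Array weights gave 7 for tamoxifen, 4 for raloxifene, 10 for ethinyl estradiol minus equilin, 2 for equilin minus estradiol benzoate and 7 for tamoxifen minus raloxifene. Of all tested probes 15.5%, 17.9%, 7.18%, 16.4% and 5.70% passed with these weights, in the same order.

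Among the other lists, contractile genes for equilin (2) gave 0 with quantile normalisation, only the groups compared or the array set block, and 1 with no centring, other offsets, other filters, the replicate block or without the evenly spaced probes. Light chain genes gave 0 for ethinyl estradiol (1) with quantile normalisation, only the groups compared, either block or without the evenly spaced probes; for equilin (1) 0 with the stricter filter or the array set block, 2 with only the groups compared and 3 by the mean over probes; for raloxifene (1) 0 with only the groups compared, the array set block, the mean over probes or without both arrays; and for estradiol benzoate (0) 1 by the mean over probes. The synthetic count for raloxifene (1) was 0 with no filter, only the groups compared, either block or without both arrays, and the serum response factor count for raloxifene was 1 with the replicate block. Array weights gave, for contractile, light chain, serum response factor and synthetic genes, 11, 11, 3 and 3 for equilin, 4, 6, 3 and 4 for tamoxifen and 3, 5, 4 and 3 for raloxifene, and 2 and 1 light chain genes for ethinyl estradiol and estradiol benzoate. With these weights 27.9%, 15.5%, 17.9%, 0.945% and 2.00% of all tested probes passed, in that order of compounds. Without both arrays equilin gave 9, 8, 3 and 1, ethinyl estradiol 2 light chain and 1 synthetic, estradiol benzoate 1 light chain and tamoxifen 1 synthetic. Without single arrays, the counts of these lists in the same order ran 0 to 0, 0 to 2, 0 to 0 and 0 to 1 for ethinyl estradiol, 0 to 0, 0 to 1, 0 to 0 and 0 to 0 for estradiol benzoate, 0 to 8, 0 to 7, 0 to 3 and 0 to 1 for equilin, 0 to 0 in all 4 for tamoxifen, and 0 to 3, 0 to 2, 0 to 2 and 0 to 2 for raloxifene; the equilin maxima of the first 3 lists came without raloxifene array 3. Without that array 12.5% of all tested probes passed for equilin. The cause of these moves was not tested. Replicate numbers only name rats: same-numbered arrays of different groups had a median correlation of deviations of 0.02 (46 pairs, -0.43 to 0.30) against -0.00 for others, and 5 of 20 arrays were closest to their own number.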
